A study of Homo sapiens with 6 samples.

Results

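The genes described here encode 10 subunits of the constitutive centromere-associated network: CENPC, CENPH, CENPI, CENPK, CENPL, CENPM, CENPN, CENPO, CENPP and CENPQ. They were taken by gene symbol, and all 10 were found among the 16655 genes of the deposited table. The family was selected on the difference of its counts and TPM between these same RfA1 and GFP libraries, so the differences of the 10 genes are given with their errors as a description and without a test. HEK-293T, a human embryonic kidney line with the SV40 large T antigen, was transfected in every library, with the pEGFP-C1 vector alone (GFP, n = 3) or with pEGFP-C1 that carries RfA1, reflectin A1 of the squid D. pealeii, a protein of light-reflecting skin cells (n = 3). Both groups thus received a plasmid and express GFP, and they differ in the reflectin fused to it. The cells were harvested 24 h after transfection. The transfection was transient, the labels do not say whether the 3 libraries of a group came from separate cultures, and the spread between them may therefore be technical.

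The network sits on centromeric chromatin throughout the cell cycle and connects it to the microtubule-binding outer kinetochore. CENP-C is an elongated protein that reaches from the CENP-A nucleosome to the outer kinetochore, CENP-H, CENP-I and CENP-K form the core of a shared module, CENP-L and CENP-N form a dimer in which CENP-N reads the CENP-A nucleosome, and CENP-O, CENP-P and CENP-Q belong to a module with CENP-U and CENP-R. CENPM was grouped here with CENPL and CENPN, although its protein is known as a partner of CENP-I. The study asked how RfA1 relates to microtubules and mitosis, and the comparison of RfA1 with GFP cells addresses whether transcripts of this kinetochore foundation differed.

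The libraries held 10272306 to 11566284 estimated counts. All 6 HEK-293T markers checked (LHX1, PAX2, KRT8, KRT18, VIM and NEFM) were present at 1 TPM or more in every library, with a summed level of 883 to 1060 TPM in GFP and 920 to 1120 TPM in RfA1 cells. Of 5 markers of other cell types, 4 were in the table, with summed levels of 9.27 to 10.6 TPM and 8.2 to 10.1 TPM. COL1A1 made up most of it (mean of 9.57 TPM in GFP cells), PTPRC and PECAM1 stayed at or below 0.05 TPM and ALB at or below 0.62 TPM, and HBB was not listed. RfA1 replicate 2 stood apart from the other RfA1 libraries: on the leading principal component (51.3% of the variance) it scored 10.1, toward the 16.8 and 11.5 of GFP replicates 2 and 3, whereas RfA1 replicates 1 and 3 scored -15.8 and -20.1 and GFP replicate 1 -2.58. A similar order was seen in the relation of counts to transcript GC content. The slope of log2 CPM, relative to the GFP mean, per 10 percentage points of GC was -0.173 and -0.207 in RfA1 replicates 1 and 3, 0.036 in RfA1 replicate 2, and -0.097, 0.072 and 0.025 in GFP replicates 1, 2 and 3.

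Transcript levels, which can be compared between genes as TPM because this unit is per length, spanned 17.5-fold in GFP cells. CENPM was highest with 148, 126 and 124 TPM in GFP replicates 1, 2 and 3, and CENPH followed with 64.6, 65.2 and 68.1 TPM. CENPN, with 50.3, 35.8 and 38.9 TPM, and CENPK, with 18.1, 18.2 and 17.6 TPM, came next, and each of these 4 genes was separated from the gene below it in all 3 GFP libraries. CENPP (14.9 ± 0.275 TPM, SD, n = 3) and CENPO (13.8 ± 1.29 TPM) overlapped with each other, near the median of 14.3 TPM over all tested genes, and both lay above CENPQ in every GFP library. CENPQ (9.87 ± 1.33 TPM), CENPI (9.75 ± 1.07 TPM), CENPL (8.57 ± 1.2 TPM) and CENPC (7.56 ± 0.804 TPM) followed, and neighbours among these last 4 genes did not differ beyond their spread. Subunits of one module were thus not at one level: CENPH stood well above its partners CENPK and CENPI, and CENPN above CENPL. In RfA1 cells the order was the same except that CENPQ (14.5 ± 2.66 TPM) lay between CENPP and CENPO, without separation from either.

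**Figure D1:**
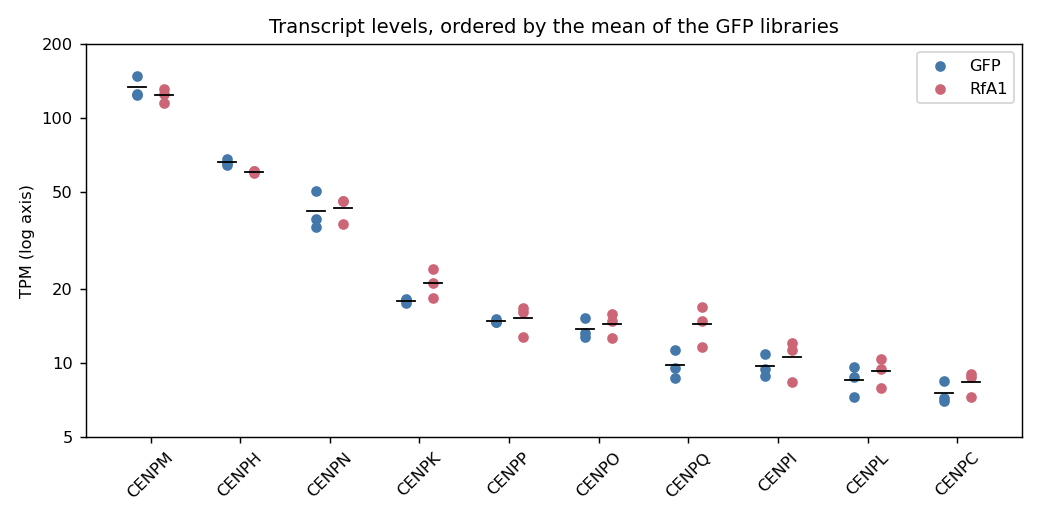
TPM (log axis) of the 10 network genes in each GFP (blue) and RfA1 (red) library, ordered by the GFP mean. Points are libraries and black bars are group means, and CENPM, CENPH, CENPN and CENPK stand clear of one another, and in GFP cells a gap also lies between CENPO and CENPQ.

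For the comparison of RfA1 with GFP, edgeR's quasi-likelihood test was fitted to the counts of 13002 genes, among them all 10 network genes. Levels between libraries are given as CPM, which are counts scaled to a normalised library size of 1000000. Of all tested genes 0.0769% passed an adjusted p of 0.05 and 13.9% an unadjusted p of 0.05. Of the 10 network genes, 0 passed the former, with edgeR and also with DESeq2, and 2 the latter with edgeR (CENPC and CENPQ, both higher) against 1 with DESeq2, which called 0.254% of all tested genes at the adjusted and 9.98% at the unadjusted p. In CPM the 3 RfA1 libraries lay above all 3 GFP libraries for CENPC, CENPK and CENPQ, 3 of 10 genes, against 9.86% of all tested genes, and below them for CENPH and CENPM, 2 of 10 genes, against 8.01%. The median log2 fold change of the 10 genes was 0.058, against -0.002 for all tested genes. Of the 10 values 8 were positive, beside 6439 of the 13002 tested genes. Among the 8, CENPL (0.018), CENPO (0.006) and CENPP (0.004) lay well below their standard errors of 0.128, 0.0945 and 0.0941. Without RfA1 replicate 2, 20.1% of 13129 tested genes passed the adjusted p, CENPQ was the 1 network gene among them, and the median of the 10 genes was 0.094. In these bulk libraries fewer cells with a transcript and less of it per cell cannot be told apart, and the RfA1 transgene itself was not analysed here. Nothing about the family is read from these counts, since its choice drew on the same comparison.

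CENP-Q, a subunit of the O/P/Q/U/R module, had the largest difference. CENPQ (Gene ID 55166) was counted 135, 110 and 118 times in GFP replicates 1, 2 and 3, which is 12.1, 9.71 and 10.4 CPM, and 168, 137 and 179 times in RfA1 replicates 1, 2 and 3, which is 15.3, 13.1 and 17.1 CPM. The lowest RfA1 library (replicate 2) lay just above the highest GFP library (replicate 1), and the groups did not overlap in TPM either. The means were 10.8 ± 1.25 and 15.1 ± 2.0 CPM (SD, n = 3 each), a 1.41-fold higher level in RfA1 cells (log2 fold change 0.49 with a standard error of 0.14). Leaving out each library in turn gave 0.40 to 0.59.

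The other members of its module lay near 0. CENPO, an RWD-domain protein that dimerises with CENP-P, had 41.8, 36.9 and 37.4 CPM in GFP and 41.6, 36.5 and 38.5 CPM in RfA1 replicates 1, 2 and 3. CENPP, its partner, had 27.8, 27.1 and 25.5 CPM against 25.7, 27.2 and 27.8 CPM. The libraries of both groups were interleaved for CENPO and CENPP, with log2 fold changes of 0.006 (standard error 0.0945) and 0.004 (standard error 0.0941), which lay between -0.047 and 0.063 and between -0.030 and 0.035 over the 16 alternative settings. The median of O/P/Q was accordingly 0.006, and the mean of their per-library values (0.186, 0.075 and 0.240 in RfA1 replicates 1, 2 and 3 on the log2 scale, against 0.116, -0.064 and -0.052 in GFP replicates) was carried by CENPQ. Exons of CENPP share 30.2% of their bases with IPPK and those of CENPO 22.9% with ADCY3, genes on the opposite strands, in the GENCODE 29 annotation. Whether strand was used in counting is not given in the sources used here, so reads of these 2 network genes and of their neighbours may be mixed.

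**Figure D2:**
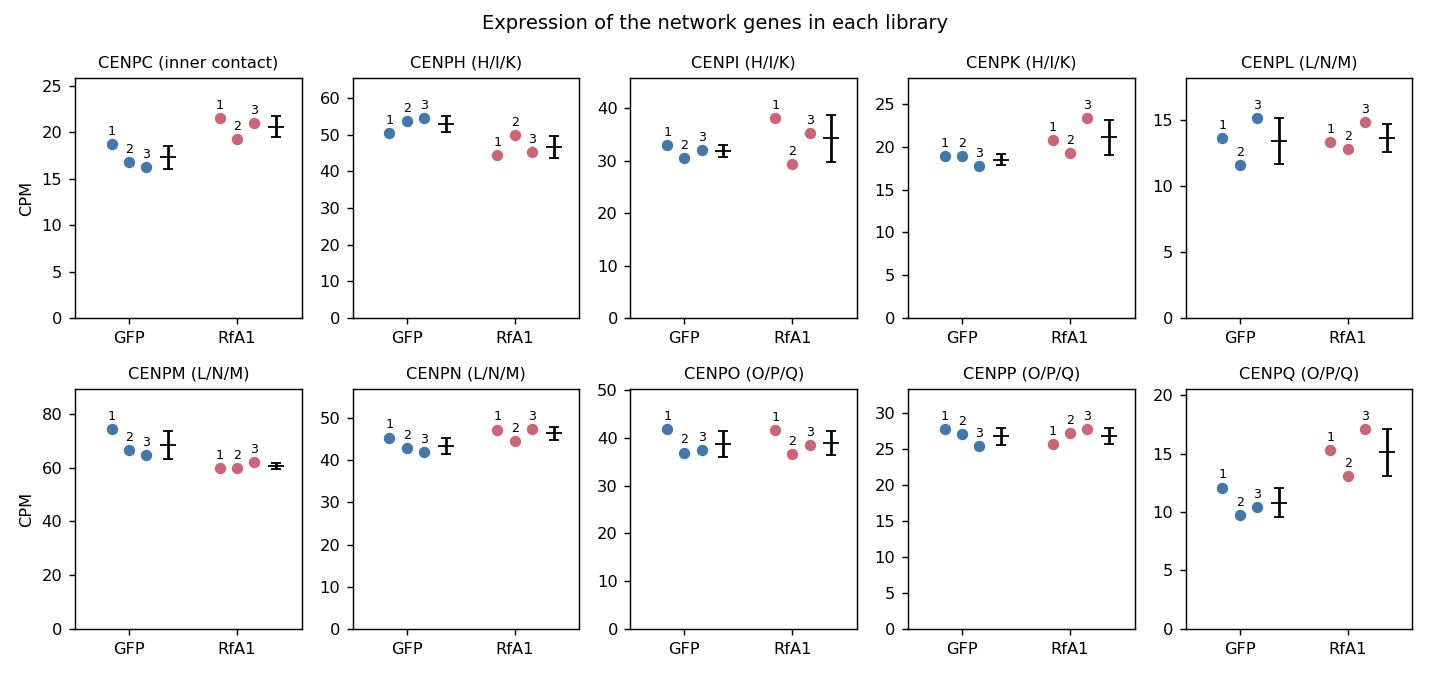
CPM of the 10 network genes in each library, with axes from 0. Points are libraries, numbered by replicate, and bars are the mean and SD of 3 libraries, and the groups are apart for CENPC, CENPK, CENPQ (higher in RfA1), CENPH and CENPM (lower).

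In the H/I/K group the subunits differed in direction. CENPH (Gene ID 64946), whose product pairs with CENP-K in a coiled coil, had 50.5, 53.7 and 54.4 CPM in GFP replicates 1, 2 and 3 and 44.4, 49.9 and 45.3 CPM in RfA1 replicates 1, 2 and 3. All RfA1 libraries lay below all GFP libraries, also in TPM, and the log2 fold change was -0.18 (standard error 0.088). CENPK (Gene ID 64105) had 18.9, 18.9 and 17.7 CPM in GFP and 20.8, 19.3 and 23.3 CPM in RfA1 cells, a log2 fold change of 0.19 (standard error 0.11). The gap for CENPK was narrow, since RfA1 replicate 2 exceeded the highest GFP libraries by less than the SD of 0.659 CPM between them. CENPI, a scaffold subunit with helical repeats, had 33.0, 30.6 and 32.0 CPM in GFP cells and 38.1, 29.4 and 35.3 CPM in RfA1 cells. Its RfA1 replicate 2 was the lowest of all 6 libraries, and the log2 fold change of 0.11 (standard error 0.11) became 0.21 without that library and 0.020 without RfA1 replicate 1. The median of the 3 genes was 0.11, and -0.035 with CENPM added to them.

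In the L/N/M group the difference with the least overlap was that of CENPM (Gene ID 79019), a small protein with a fold like that of GTPases. It had 74.3, 66.5 and 64.5 CPM in GFP and 60.0, 59.9 and 61.9 CPM in RfA1 cells, so that all RfA1 libraries were lower (log2 fold change -0.18, standard error 0.085). In TPM, however, the CENPM groups overlapped, with 124 to 148 TPM in GFP and 115 to 131 TPM in RfA1 cells. CENPN, the reader of the CENP-A nucleosome, had 45.4, 42.8 and 41.9 CPM against 47.3, 44.6 and 47.4 CPM, with RfA1 replicate 2 below GFP replicate 1 (log2 fold change 0.098, standard error 0.085). CENPL, its dimer partner, had 13.6, 11.6 and 15.1 CPM against 13.3, 12.8 and 14.8 CPM. The CENPL libraries were interleaved (log2 fold change 0.018, standard error 0.13), and it was negative in 4 of 16 alternative settings. The median of the group was 0.018, and turned to -0.075 without GFP replicate 2 and -0.045 without RfA1 replicate 3. It was also negative, at -0.025, after the correction for GC content given below. CENPN shares 14.5% of its exon bases with CMC2 on the opposite strand and is uncertain in the same way as CENPO and CENPP.

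CENPC (Gene ID 1060), the inner contact of the network, had 18.7, 16.8 and 16.3 CPM in GFP and 21.5, 19.3 and 21.0 CPM in RfA1 replicates 1, 2 and 3. The RfA1 libraries were the 3 highest, with means of 17.3 ± 1.27 and 20.6 ± 1.11 CPM and a log2 fold change of 0.26 (standard error 0.11). In TPM the CENPC groups overlapped, with 6.99 to 8.48 TPM in GFP and 7.26 to 9.07 TPM in RfA1 cells.

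**Figure D3:**
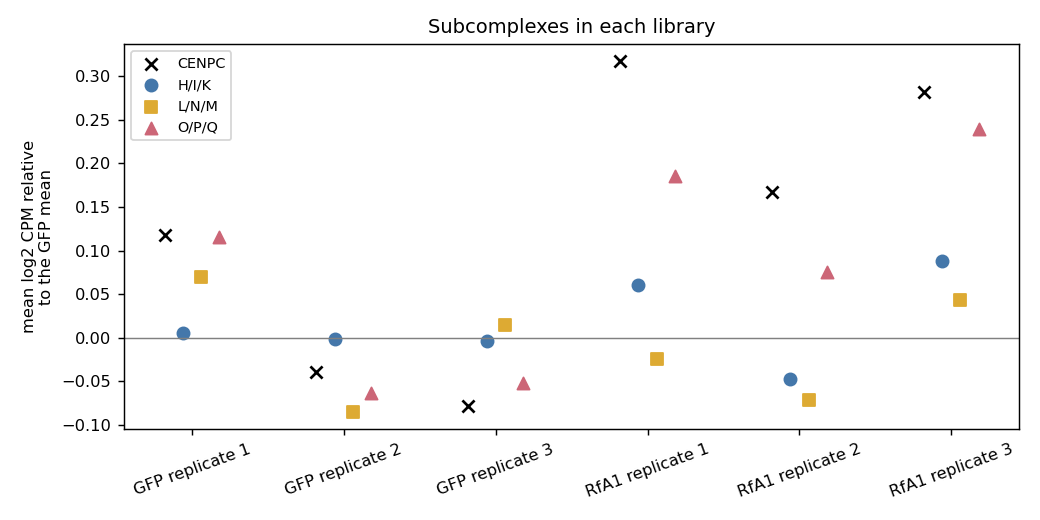
Mean log2 CPM of CENPC and of the H/I/K, L/N/M and O/P/Q genes in each library, as a difference from the GFP group's mean. CENPC and O/P/Q are above 0 in all RfA1 libraries and also in GFP replicate 1, while L/N/M and H/I/K change sign between RfA1 replicates.

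Ratios of counts between subunits that bind each other do not depend on the scaling of a library, and were computed after the single values had been seen. CENPH to CENPK was 2.67, 2.85 and 3.06 in GFP and 2.13, 2.59 and 1.94 in RfA1 replicates 1, 2 and 3, lower in every RfA1 library. In CPM, CENPH lay lower and CENPK higher in all RfA1 libraries than in all GFP libraries. The separation of their ratio follows from those values and adds nothing to them. CENPQ to CENPU was 0.205, 0.181 and 0.175 against 0.225, 0.209 and 0.281, higher in every RfA1 library. The share of other gene pairs that separate in this way was not computed. Nor were the ratios corrected for transcript GC content, which was 33.9% for CENPQ and 38.3% for CENPU. It was 32.9% for CENPK and 42.5% for CENPH. The ratios of CENPI to CENPM (0.444 to 0.495 in GFP, 0.490 to 0.636 in RfA1), CENPL to CENPN (0.272 to 0.360 and 0.281 to 0.312) and CENPO to CENPP (1.36 to 1.5 and 1.34 to 1.62) overlapped between the groups.

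Differences across all genes followed the GC content of the transcripts, and the network genes were spread along it. Over 4 equally large sets of the tested genes, from AT-rich to GC-rich, the median log2 fold change was 0.11, 0.059, -0.040 and -0.15. CENPK (32.9% GC) and CENPQ (33.9% GC) were among the most AT-rich of all tested genes, at percentiles 0.132 and 0.395, and CENPC (38.4% GC) and CENPI (41.0% GC) lay in the same AT-richest set. CENPM, the GC-richest of the 10 (61.4% GC, percentile 87.3), had the lowest value but one, and CENPH, the lowest, had 42.5% GC. With a spline on GC content fitted in each library, the log2 fold change was 0.35 for CENPQ, 0.15 for CENPC, 0.040 for CENPK, 0.015 for CENPI, -0.025 for CENPM and -0.26 for CENPH. The values of CENPK, CENPI and CENPM thus came close to 0 with this correction, while that of CENPH moved away from it. The median of the 10 genes was then 0.028, against 0.005 for all tested genes. The part of GC content in the difference of any single gene was not tested.

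**Figure D4:**
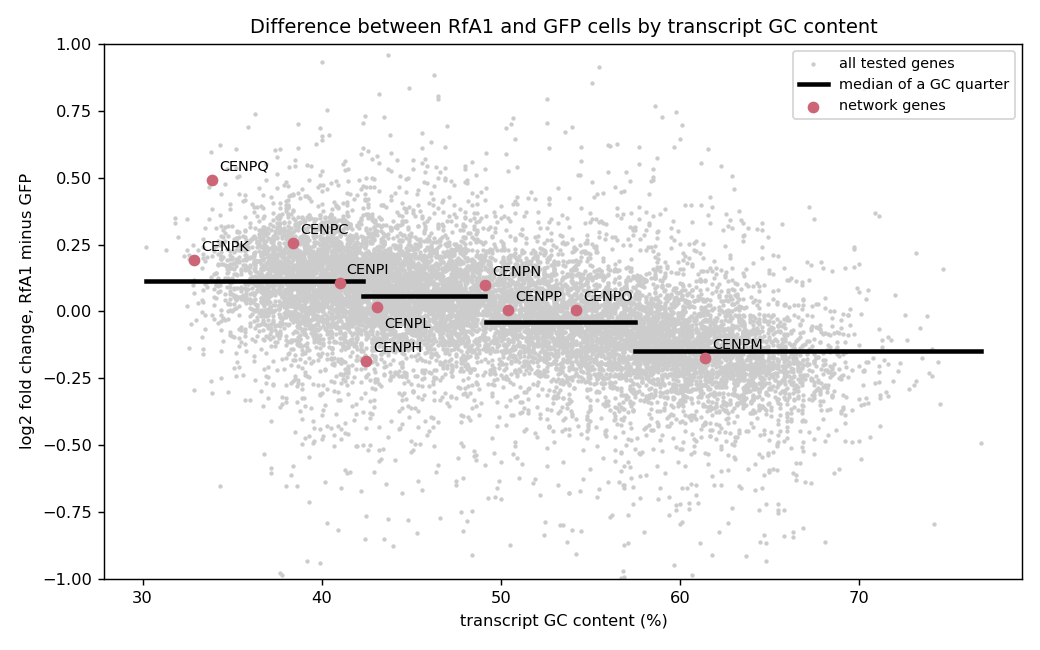
Log2 fold change (RfA1 minus GFP) against transcript GC content for 12917 tested genes (grey), with the median of each of 4 equally large GC sets (black lines) and the 10 network genes (red). The axis leaves out 31 genes beyond 1 in either direction, and CENPQ lies above, CENPH below the median line of its set.

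Promoter windows were examined as a feature shared by the genes that the choice of the family did not use. Windows from 250 bases before to 50 bases after the start were taken from RefSeq (GRCh38.p14) for 7 of the 10 genes, all but CENPH, CENPL and CENPM. Where a gene had several starts the most upstream one was used. The CENPI window had 37.7% GC, against a median of 62.7% in the windows of protein-coding genes. Whether it lies at a promoter was not tested, and the counts out of 7 include it. Windows were searched on both strands for the CHR element (TTTGAA) and the CCAAT box (CCAAT), which are common in promoters of genes expressed late in the cell cycle, for an E2F site (GGCGGGAA) and for an ETS site (CCGGAAGT). The CHR letters were in 3 of the 7 windows (CENPC, CENPN and CENPO), against 12.2% of the 15843 windows of protein-coding genes, and CCAAT in 4 of 7 (CENPC, CENPK, CENPN and CENPQ), against 36.4%. The E2F letters were in CENPN alone (4.24% of protein-coding windows) and the ETS letters in CENPQ alone (6.16% of protein-coding windows). The windows with the CHR letters and that of CENPQ, the gene with the largest difference, are shown 5′ to 3′ along the gene, with every match to the 4 motifs in capitals. Matches on the opposite strand appear as the reverse complement of the motif, and none overlapped with another. In GRCh38.p14 the windows are chr4:67545454-67545753 on the minus strand for CENPC, and on the plus strand chr16:81006964-81007263 for CENPN, chr2:24793175-24793474 for CENPO and chr6:49463120-49463419 for CENPQ.
CENPC: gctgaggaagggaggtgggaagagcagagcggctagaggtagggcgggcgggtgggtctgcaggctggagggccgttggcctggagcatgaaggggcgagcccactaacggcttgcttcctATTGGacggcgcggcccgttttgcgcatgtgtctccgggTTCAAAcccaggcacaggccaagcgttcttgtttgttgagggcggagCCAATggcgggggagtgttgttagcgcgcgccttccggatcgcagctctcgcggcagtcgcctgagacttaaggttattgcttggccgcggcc
CENPN: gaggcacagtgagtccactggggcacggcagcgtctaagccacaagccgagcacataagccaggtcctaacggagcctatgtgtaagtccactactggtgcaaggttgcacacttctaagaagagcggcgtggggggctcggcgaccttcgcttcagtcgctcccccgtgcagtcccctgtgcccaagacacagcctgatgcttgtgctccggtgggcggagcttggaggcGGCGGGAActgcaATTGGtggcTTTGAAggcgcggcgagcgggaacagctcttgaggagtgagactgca
CENPO: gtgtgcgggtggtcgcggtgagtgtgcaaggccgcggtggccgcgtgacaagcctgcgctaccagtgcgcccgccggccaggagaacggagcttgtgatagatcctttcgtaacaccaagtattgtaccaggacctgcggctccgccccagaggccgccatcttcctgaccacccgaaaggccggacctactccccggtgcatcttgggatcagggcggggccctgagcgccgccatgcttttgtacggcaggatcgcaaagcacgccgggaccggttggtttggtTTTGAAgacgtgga
CENPQ: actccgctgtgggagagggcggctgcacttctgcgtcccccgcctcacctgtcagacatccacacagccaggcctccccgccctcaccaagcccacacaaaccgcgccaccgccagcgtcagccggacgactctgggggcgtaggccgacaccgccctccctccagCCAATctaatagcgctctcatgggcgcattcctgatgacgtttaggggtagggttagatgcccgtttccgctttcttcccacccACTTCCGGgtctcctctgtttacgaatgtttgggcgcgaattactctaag

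In the CENPN window the E2F letters, the CCAAT box and the CHR letters began at bases 232, 245 and 254, close to the start at base 251. In CENPC the CHR letters began at base 161, and in CENPO at base 287, within the transcribed part. The ETS letters of CENPQ began at base 251, the start itself. These are matches of letters and not measured binding. The genes that share the CHR letters had log2 fold changes of 0.26 (CENPC), 0.098 (CENPN) and 0.006 (CENPO).

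Of the 10 genes, 5 have a protein-coding gene on the other strand that starts within 1000 bases upstream, so that both lie head to head. MMUT, a mitochondrial mutase gene, starts 117 bases from CENPQ and had 28.2, 22.7 and 23.0 CPM in GFP and 25.8, 22.3 and 25.2 CPM in RfA1 replicates 1, 2 and 3. The MMUT libraries were interleaved, at -0.010 (SE 0.12) on the log2 scale, beside 0.49 for CENPQ. Whether MMUT and CENPQ share a promoter in these cells was not tested. PPWD1, a cyclophilin-family gene 128 bases from CENPK, had 30.2 ± 3.63 and 37.6 ± 3.96 CPM (SD, n = 3 each) and a log2 fold change of 0.32 (standard error 0.12, edgeR's Benjamini-Hochberg adjusted p = 0.293). Its groups overlapped in CPM and TPM, with 34.3 CPM in GFP replicate 1 and 33.8 CPM in RfA1 replicate 2. Without RfA1 replicate 2, a setting in which 20.1% of all tested genes passed, PPWD1 passed too (log2 fold change 0.39, adjusted p = 0.0160 in edgeR). The values were 0.14 for CMC2 (329 bases from CENPN), 0.10 for NOL8 (118 bases from CENPP) and -0.125 for PTRHD1 (34 bases from CENPO). With all libraries, 0 of the 5 neighbours passed the adjusted p in edgeR or DESeq2, beside 0.0769% and 0.254% of all tested genes. With edgeR 1 of the 5 (PPWD1) had an unadjusted p under 0.05, beside 13.9% of all tested genes. After the GC correction the values were 0.22 for PPWD1, 0.055 for CMC2, 0.015 for NOL8, -0.166 for PTRHD1 and -0.113 for MMUT. With 1 library left out, CMC2 lay between 0.044 (without RfA1 replicate 3) and 0.25 (without RfA1 replicate 2).

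The remaining subunits of the network were compared in the same fit. CENPU, the partner of CENP-Q, had 59.4, 53.6 and 59.7 CPM in GFP and 67.9, 62.3 and 60.6 CPM in RfA1 replicates 1, 2 and 3, and ITGB3BP, which encodes CENP-R of the same module, had 54.0, 51.5 and 46.3 CPM against 56.5, 56.9 and 64.8 CPM. For both genes the groups did not overlap, with log2 fold changes of 0.15 ± 0.088 (SE, edgeR adjusted p = 0.452) and 0.23 ± 0.095 (SE, edgeR adjusted p = 0.323). In CPM the RfA1 libraries lay above all GFP libraries for these 2 of the 6 other subunits, beside 9.86% of all tested genes. They lay below them for 0 of the 6, beside 8.01%. The gap for CENPU was narrow, with 60.6 CPM in RfA1 replicate 3 and 59.7 CPM in GFP replicate 3. Transcripts of both are AT-rich (38.3% and 37.9% GC), and after the GC correction the values were 0.040 and 0.12. Exons of CENPU share 17.3% of their bases with PRIMPOL on the opposite strand, so its reads may be mixed in the same way as those of CENPO. Of the histone-fold subunits that bind DNA, CENPX and CENPT had log2 fold changes of -0.25 ± 0.10 (SE, edgeR adjusted p = 0.321) and -0.18 ± 0.087 (SE, edgeR adjusted p = 0.385). Their RfA1 replicate 2 lay within the range of the GFP libraries in CPM, though not in TPM, and without it both passed (edgeR adjusted p = 0.00344 and 0.0212), as did 20.1% of all tested genes. After the GC correction the values were -0.117 for CENPX and -0.062 for CENPT. CENPW (0.055) and CENPS (-0.040) overlapped between the groups, and CENPS shares 68.7% of its exon bases with the readthrough gene CENPS-CORT, so that its counts are uncertain. With edgeR 0 of the 6 genes passed the adjusted p, beside 0.0769% of all tested genes. Of the 6 genes, 1 higher (ITGB3BP) and 1 lower (CENPX) had an unadjusted p under 0.05, beside 13.9% of all tested genes. With DESeq2, 0 passed the adjusted p and 2 the unadjusted p, beside the 9.98% of all tested genes.

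**Figure D5:**
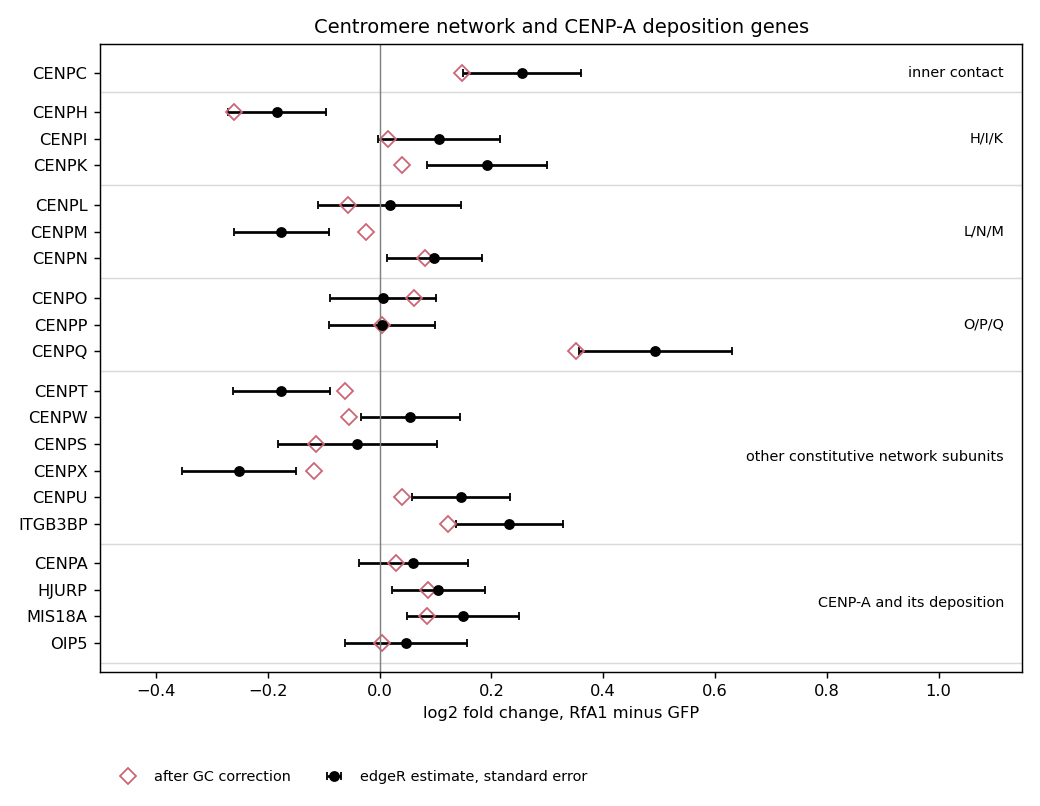
Log2 fold change (RfA1 minus GFP) of the 10 network genes, the 6 other subunits and 4 genes of CENP-A and its deposition. Black points are edgeR estimates with their standard errors and red diamonds the values after the GC correction, and the correction draws CENPK, CENPM, CENPT and CENPX toward 0 and leaves CENPQ at 0.35 and CENPH at -0.26.

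CENP-A is the centromeric histone on which the network assembles. For it and the 3 deposition factors reported here, the 4 log2 fold changes were positive, beside 6439 of 13002 tested genes. The median of the 4 values was 0.083, and 0.057 after the GC correction. They were 0.060 for CENPA (adjusted p = 0.790 in edgeR), 0.105 for HJURP, the CENP-A chaperone (adjusted p = 0.560 in edgeR), and 0.15 and 0.047 for MIS18A and OIP5, subunits of the complex that primes centromeres for loading (adjusted p = 0.499 and 0.860 in edgeR). In CPM both groups overlapped for each of the 4 genes. In TPM they overlapped for all but HJURP, which had 41.3 to 45.7 TPM in GFP and 48.0 to 52.1 TPM in RfA1 cells. The share of all tested genes that lie apart in TPM was not computed. With edgeR and with DESeq2, 0 of them passed the adjusted p and 0 had an unadjusted p under 0.05. Of all tested genes, 13.9% had such an unadjusted p with edgeR and 9.98% with DESeq2.

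In the outer kinetochore network of KNL1, MIS12 and NDC80 complexes, which binds microtubules, the median of 10 genes was 0.11, and 0.024 after the GC correction. MIS12 (0.24) and KNL1 (0.23) had the smallest p (edgeR adjusted p = 0.425 and 0.436), and both passed without RfA1 replicate 2 (edgeR adjusted p = 0.0267 and 0.0182). Of 5 other genes with a CENP symbol the median was 0.052, and -0.013 after the GC correction, with CENPB, which binds the satellite repeat, at -0.15 and CENPF, a kinetochore protein of G2 and mitosis, at 0.065. In the chromosomal passenger and cohesion list the median of 7 genes was 0.014, and 0.032 after the GC correction, with INCENP, the scaffold of the passenger complex, at -0.21 and SGO1, the protector of centromeric cohesion, at 0.17. In the 8 proliferation genes it was 0.075, and 0.011 after the GC correction, with CDK1, the mitotic kinase, at 0.205 and CCNA2, cyclin A2, at 0.17, beside which the 0.058 of the 10 network genes is given. INCENP also passed without RfA1 replicate 2 (log2 fold change -0.295, edgeR adjusted p = 0.00942), as did 3 further genes of these lists, namely TOP2A (0.21), BUB1 (0.26) and PLK1 (-0.21). With MIS12 and KNL1 these were 6 of the 30 genes of the 4 lists, beside the 20.1% of all tested genes in that setting. In edgeR's test 0 genes of these 4 lists passed the adjusted p. At an unadjusted p under 0.05 edgeR gave 0 genes in the outer kinetochore and CENP-symbol lists. INCENP (lower) in the cohesion list and CDK1 (higher) in the proliferation list had such a p, beside 13.9% of all tested genes. DESeq2 gave the counts 0, 0, 1 and 1, beside its 9.98% of all tested genes, with 0 past the adjusted p. TOP2A, BUB1 and PLK1 were named after their values were seen.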

How the data were processed

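RNA-seq libraries of GFP (n = 3) and RfA1 (n = 3) HEK-293T cells were used as grouped by the sample labels. The network genes and all gene lists were chosen with earlier results of these data known. The submitters' processing notes name HISAT and GRCh38.p13, and the counting tool, the annotation and strandedness are not given in the sources used here. The authors deposited estimated counts per gene, of which 7.39% to 8.02% are not whole, without normalization. The authors also deposited TPM, scaled to one total per library, and FPKM, used here only for the order of levels. Columns of averages were not used.

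Counts were rounded, filtered with edgeR's filterByExpr (minimum count 10, total 15, 13002 genes) and scaled by TMM. The test was the robust quasi-likelihood test of edgeR 4.0.16 (R 4.3.3), two-sided, with Benjamini-Hochberg adjustment over all tested genes. Standard errors were the log2 fold change divided by the root of the F statistic. The total of 10272306 to 11566284 counts per library sets the counting error, which the test includes. No 2 libraries of a group agreed within counting error (chi-square per degree of freedom of at least 1.89). GC content came from the longest coding transcript of GENCODE 29 (98.3% of genes), and a spline with 5 degrees of freedom per library entered as an offset. Alternatives were DESeq2 1.42.0, upper-quartile and total-count scaling, other filters, the replicate number as a block, the GC correction with and without the block, limma-trend (limma 3.58.1) on log2(TPM + 1) and log2(TPM + 0.1), and each library left out. Scripts were tested on simulated data. Named were all network subunits, the CENP-A genes, head-to-head neighbours and the 2 genes with the smallest p in each other list. Protein sequences were not analysed here. 1 gene of the CENP-A list was left out and is not reported here, so the counts and median of that list cover the other 4.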

Additional observations from a re-analysis of the deposited data

How the results depend on the processing

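Of all tested genes, 10 passed with the settings of the report, and 33 with DESeq2, 6 with upper-quartile scaling, 20 without a filter on low counts, 4 with limma-trend on TPM at either pseudocount, 203 with the GC correction, and 0 to 2636 with 1 library left out, the highest without RfA1 replicate 2 and the others at most 4. Of the network genes 0 passed, and 0 to 1 with 1 library left out (CENPQ without RfA1 replicate 2, log2 fold change 0.59). Of the 40 genes of the other lists, 0 to 8 passed with 1 library left out (beside 20.1% of all tested genes in the setting with 8), and of the 5 head-to-head neighbours 0 to 1, in each case the highest without RfA1 replicate 2. The median of H/I/K, 0.106, moved to 0.015 with the GC correction, and lay between 0.020 (without RfA1 replicate 1) and 0.207 (without RfA1 replicate 2) with 1 library left out. With 1 library left out that of L/N/M lay between -0.075 (without GFP replicate 2) and 0.074, and that of O/P/Q between -0.018 (without GFP replicate 3) and 0.063. With the GC correction the median was -0.025 for L/N/M and 0.061 for O/P/Q, against 0.018 and 0.006 without it. The median of the 10 genes was positive in all 16 alternatives, from 0.028 to 0.097. With limma-trend on log2(TPM + 1) and log2(TPM + 0.1) it was 0.08 and 0.086, where the median of all tested genes was 0.045 and 0.052. In the other settings the median of all tested genes lay between -0.008 and 0.014. Signs were kept in all 16 for CENPC, CENPH, CENPI, CENPK, CENPM, CENPN and CENPQ, and changed for CENPL, CENPO and CENPP. With limma-trend CENPN was 0.048 and 0.049, near the median of all tested genes. CENPQ lay between 0.35 and 0.54 over the settings that kept all libraries. With FPKM all 10 ranks of the levels were the same. FPKM and TPM differ within a library only by a common factor, so this could hardly come out otherwise. Without GFP replicate 1, 8 of the 10 ranks were the same. The causes of these changes were not tested.

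Deviations from the group means correlated by 0.227, 0.355 and -0.135 between the libraries numbered 1, 2 and 3, so the numbers were not taken as a pairing, and RfA1 replicate 3 correlated best with GFP replicate 1 (0.349). With the replicate number as a block 625 of 13002 genes (4.81%) passed, among them 1 network gene (CENPQ, log2 fold change 0.49) and 1 neighbour (PPWD1, edgeR adjusted p = 0.0496). With the GC correction and the block together 459 genes (3.53%) passed, 1 of them a network gene (CENPH, log2 fold change -0.26), CENPQ did not pass, and the H/I/K median was 0.014. With counts of 110 to 826 per gene and library and 3 libraries a group, standard errors were 0.085 to 0.14.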

Other observations

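Counts and TPM of one gene need not move together, because the length by which the authors divided can differ between libraries. The ratio of CPM to TPM, scaled to the median gene of each library, gives this length in relative terms. For CENPC it was 1.07, 1.10 and 1.07 in GFP replicates 1, 2 and 3 and 1.2, 1.23 and 1.22 in RfA1 replicates 1, 2 and 3, without overlap between the groups. Of 9872 genes with at least 100 counts in every library, 4.5% had the RfA1 libraries above all GFP libraries in this measure, and 0.476% did so with a ratio of the group means of at least the 1.13 of CENPC. The CPM of CENPC did not overlap between the groups, whereas its TPM did. Both held for CENPM too, whose measure was 0.243 to 0.246 in GFP and 0.24 to 0.242 in RfA1 cells. These ranges did not overlap either, with a small gap and RfA1 lower. The share of genes that lie apart in that direction was not computed. The comparisons were chosen after the values were seen and have no test.

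For CENPN the same measure was 0.437 in GFP replicate 1 and 0.511 to 0.557 in the other 5 libraries, and the highest was 1.28 times the lowest, at percentile 97.8 of these genes (median of 1.01). The 50.3 TPM of CENPN in GFP replicate 1, against 35.8 and 38.9 TPM in the other GFP libraries, thus went with 505 counts against 485 and 475. CENPP ranged from 0.803 (RfA1 replicate 1) to 0.983 (RfA1 replicate 2), at percentile 96.7, while CENPH had the value 0.379 in all 6 libraries and CENPQ 0.512 to 0.520. The isoforms behind these lengths were not analysed here.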
